A study of Mus musculus with 6 samples.

Results

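Oxidative phosphorylation is carried out by 5 protein complexes of the inner mitochondrial membrane. Complex I oxidizes NADH and complex II oxidizes succinate. Complex III passes the electrons to cytochrome c, and complex IV, cytochrome c oxidase, passes them to oxygen. Complex V, the ATP synthase, uses the resulting proton gradient to make ATP. Most subunits are encoded in the nucleus and used in nearly every cell, whereas some subunits of complex IV have isoforms restricted to muscle, lung, testis or other tissues. The nuclear genes examined here were the protein-coding genes of chromosomes 1 to 19 in the GENCODE vM21 annotation of mm10 whose symbols begin as Ndufa, Ndufb, Ndufc, Ndufs or Ndufv followed by a number, or with Uqcr, Cox4 to Cox8 or Atp5, together with Sdha, Sdhb, Sdhc and Sdhd. The rule found 82 gene records with 81 symbols among 20807 coding genes. Atp5o has 2 records, of which one is a readthrough record with a single incomplete transcript.

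CUT&RUN maps a protein or histone mark by directing protein A-MNase to an antibody in permeabilized cells and sequencing the DNA that the nuclease releases. HA-ASH2L E14 cells, mouse embryonic stem cells labelled as an HA-Ash2L knock-in, gave 2 biological duplicates with an H3K4me3 antibody and 2 with an antibody to the HA tag. The HA CUT&RUN was also run in 2 duplicates of parental E14 cells, labelled WT, for 6 samples in all. Cells grew in serum and LIF, and doxycycline, which switches on the HA-Ash2L transgene, was given for 48 h. Per sample, 1000000 cells were used for HA and 100000 for H3K4me3 as the labels give it. ASH2L is a shared subunit of the MLL/SET1 complexes that methylate lysine 4 of histone H3, and the trimethylated form, H3K4me3, is found around the start sites of most active genes and of many genes with CpG-rich promoters. The comparison made here is which promoters of these genes carried a peak of either list.

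The duplicates were merged before peaks were called, so there was 1 H3K4me3 list and 1 ASH2L list, no value for a single sample and no spread between duplicates. All counts and medians below are therefore descriptions of these lists without a test, set beside the same value over all coding genes. The H3K4me3 list held 59927 peaks from 27328071 tags, of which 45.7% lay in peaks. The ASH2L list held 2464 peaks from 25677963 tags, of which 0.398% lay in peaks. No control library was used, and the background of each peak came from the same library within 10000 bp. An H3K4me3 promoter peak was listed at 69.8% of all coding genes. Of 9 stem cell markers, 5 had one, but no peak was listed at the defining markers Pou5f1, Nanog, Sox2 and Tdgf1. The nearest listed peak was 4213 bp from a start site of Pou5f1 and 25135 bp from one of Sox2. Of 8 markers of other cell types, 2 had a peak, Cd3e and Krt5. A gene without a peak is for this reason reported as having no listed peak, and not as lacking the mark.

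Promoter sequences are shown for 2 of the 3 isoform pairs of complex IV with an entry for both genes, and for Ndufb10 and Atp5d, widely used subunit genes without a listed peak, so that their CpG content can be read beside the H3K4me3 values. They are RefSeq promoters of GRCm38.p6, the build also called mm10, from 250 bp before to 50 bp after the RefSeq start site, written 5′ to 3′ on the strand of the gene. The 63 members with an entry matched the genome sequence exactly, in 63 of 63. The intervals are Cox8a at chr19:7217567-7217866 (minus strand), Cox8b at chr7:140900397-140900696 (minus strand), Cox7a2 at chr9:79759804-79760103 (minus strand), Cox7a1 at chr7:30183921-30184220 (plus strand), Ndufb10 at chr17:24724374-24724673 (minus strand) and Atp5d at chr10:80142065-80142364 (plus strand). Capitals mark every CG dinucleotide, the site of DNA methylation.
Cox8a: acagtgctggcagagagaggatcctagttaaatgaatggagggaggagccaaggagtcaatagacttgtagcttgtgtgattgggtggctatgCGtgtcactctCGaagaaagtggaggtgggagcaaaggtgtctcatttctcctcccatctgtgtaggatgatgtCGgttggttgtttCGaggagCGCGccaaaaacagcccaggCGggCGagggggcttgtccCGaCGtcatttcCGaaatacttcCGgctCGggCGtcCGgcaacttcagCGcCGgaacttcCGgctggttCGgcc
Cox8b: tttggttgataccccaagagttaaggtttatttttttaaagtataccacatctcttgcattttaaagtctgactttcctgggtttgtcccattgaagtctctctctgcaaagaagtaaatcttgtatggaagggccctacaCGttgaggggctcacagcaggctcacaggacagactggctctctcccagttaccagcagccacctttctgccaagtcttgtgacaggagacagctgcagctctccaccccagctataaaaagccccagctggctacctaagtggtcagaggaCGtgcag
Cox7a2: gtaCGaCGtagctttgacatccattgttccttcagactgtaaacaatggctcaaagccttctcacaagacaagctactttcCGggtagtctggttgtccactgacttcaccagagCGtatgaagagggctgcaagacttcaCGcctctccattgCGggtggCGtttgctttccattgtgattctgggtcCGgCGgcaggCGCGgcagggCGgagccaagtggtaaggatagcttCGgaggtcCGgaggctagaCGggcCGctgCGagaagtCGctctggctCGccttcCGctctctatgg
Cox7a1: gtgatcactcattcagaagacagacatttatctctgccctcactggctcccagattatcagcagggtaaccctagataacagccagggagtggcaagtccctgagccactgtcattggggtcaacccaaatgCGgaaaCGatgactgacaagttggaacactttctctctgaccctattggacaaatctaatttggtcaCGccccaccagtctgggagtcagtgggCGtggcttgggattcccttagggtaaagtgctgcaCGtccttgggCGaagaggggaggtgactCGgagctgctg
Ndufb10: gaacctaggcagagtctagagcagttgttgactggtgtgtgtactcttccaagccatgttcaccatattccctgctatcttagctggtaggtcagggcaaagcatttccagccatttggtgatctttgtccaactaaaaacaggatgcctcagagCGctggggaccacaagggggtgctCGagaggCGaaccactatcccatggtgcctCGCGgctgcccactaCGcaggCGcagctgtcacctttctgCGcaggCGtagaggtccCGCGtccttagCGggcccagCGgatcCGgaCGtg
Atp5d: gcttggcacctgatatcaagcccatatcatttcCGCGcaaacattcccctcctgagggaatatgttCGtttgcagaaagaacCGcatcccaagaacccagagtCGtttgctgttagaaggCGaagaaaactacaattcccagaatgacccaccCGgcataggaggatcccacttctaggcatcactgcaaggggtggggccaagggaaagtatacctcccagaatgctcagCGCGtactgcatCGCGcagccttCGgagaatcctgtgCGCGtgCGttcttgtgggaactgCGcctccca
The promoter of Cox8a held 19 CG dinucleotides and that of its tissue-restricted relative Cox8b held 2. Cox7a2 had 20 and Cox7a1 had 7. Ndufb10 and Atp5d, which had no listed peak, had 15 and 16. The pair not shown is Cox6b1 and Cox6b2. Its ratios of observed to expected CpG were 0.81 and 0.43, whereas its H3K4me3 tags were 459 and 731.

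H3K4me3 promoter peaks were listed at 76 of the 82 gene records (92.7%), compared with 69.8% of all coding genes. A promoter reached from 1000 bp upstream to 100 bp downstream of any annotated start site. All 4 genes of complex II and all 8 of complex III had a peak, as did 33 of 35 genes of complex I, 15 of 17 of complex IV and 16 of 18 of complex V. Of the 8 tissue-restricted isoforms, 5 had a peak (62.5%), and of the other 74 records 71 did (95.9%). No peak was listed at Ndufa4l2 and Ndufb10 of complex I, Cox6a2 and Cox7b2 of complex IV, Atp5d of complex V and the readthrough record of Atp5o.

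The peaks lay over the start sites. Each of the 76 peaks covered the reference start site of its gene, and 64 filled a whole promoter window of at least 1 start site. No share over all coding genes is given for these counts. The summit lay within 100 bp of the reference start site at 52 genes (68.4%), compared with 37.0% of all coding genes with a peak, and within 500 bp at 68 (89.5%), compared with 72.4%. Upstream of the start site the peaks extended a median of 1360 bp, and downstream 1802.5 bp. Over all coding genes with a peak these medians were 1142 and 1711 bp. The smallest overlap with a window was 419 bp at Ndufb7, an accessory subunit of complex I whose peak lay mostly inside the gene.

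**Figure D1:**
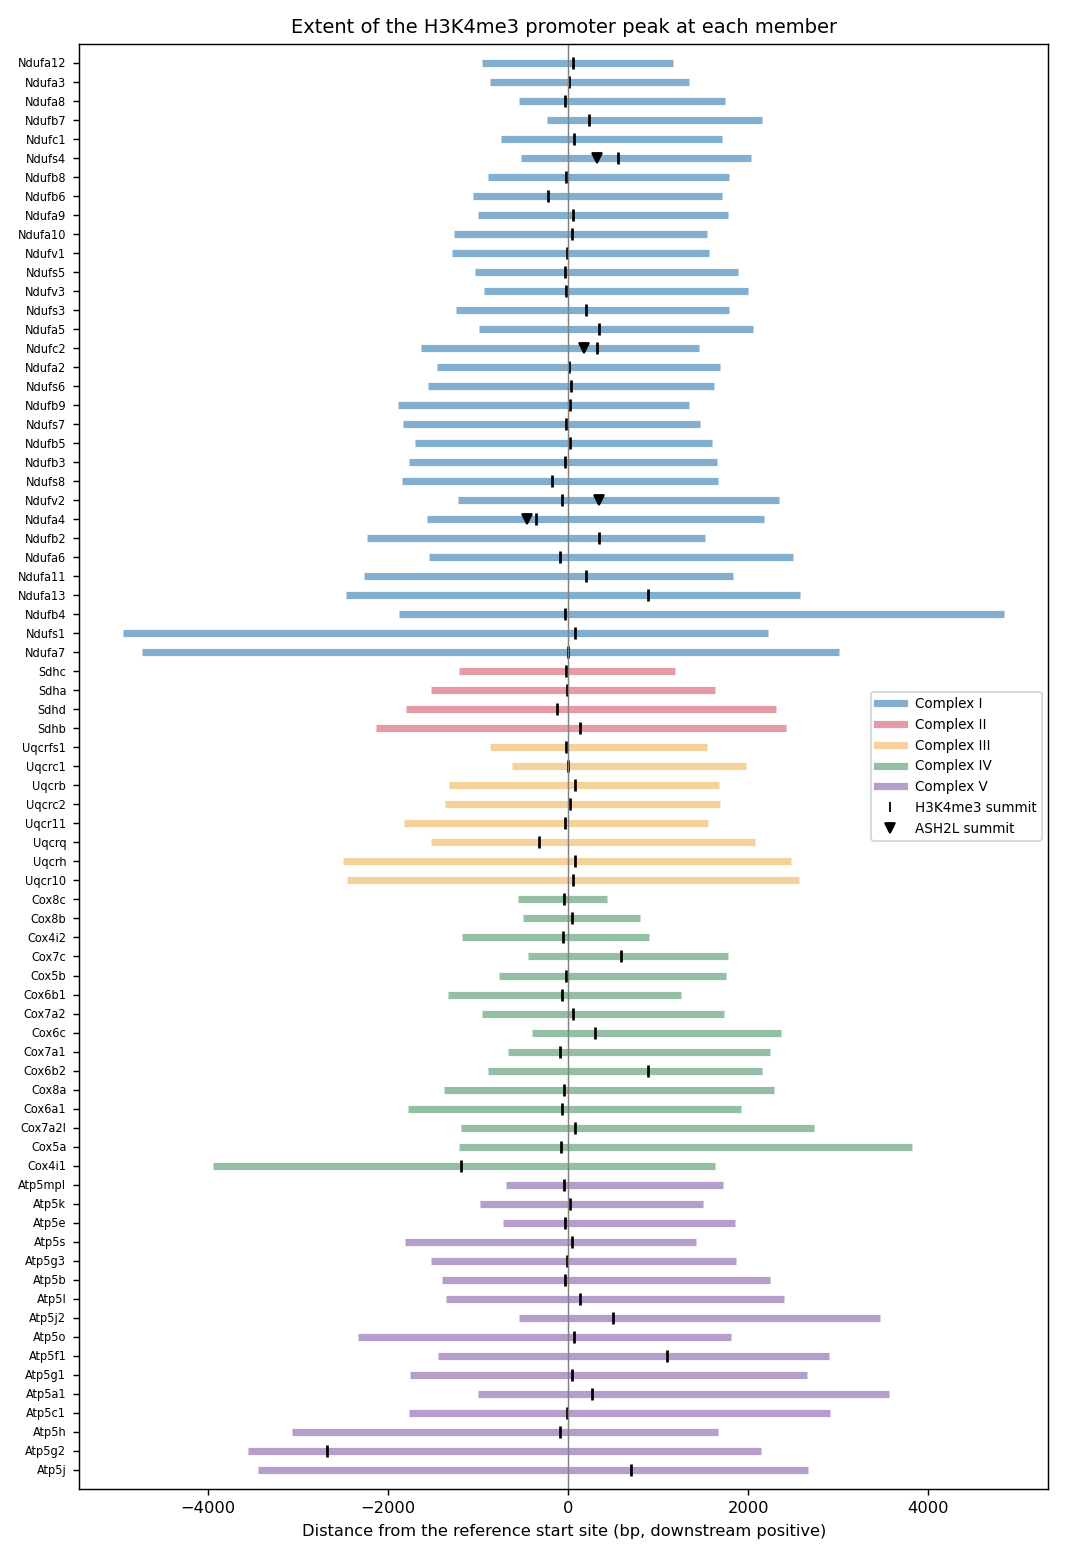
Extent of the H3K4me3 promoter peak of the members with a peak, apart from 1 not drawn, in bp from the reference start site, ordered by complex and width and coloured by complex. Vertical ticks mark the H3K4me3 summit, which lies within 100 bp of the start site at most members, and triangles mark the summits of the 4 ASH2L peaks.

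The median peak at these genes measured 3237.0 bp, with quartiles of 2687 and 4054 bp, and the median over all coding genes with a peak was 2964.0 bp. The peak of 48 of 76 members (63.2%) was wider than that median. Tags per peak had a median of 575.5, from 64 at Cox8c to 1130 at Atp5g2, compared with 476.0 over all coding genes, and 53 members (69.7%) were above it. Fold enrichment over the local background had a median of 6.61, compared with 6.34, and 42 members (55.3%) were above it. Of the member peaks, 39.5% also covered the promoter of another coding gene, compared with 20.7% over all coding genes with a peak. The part of such sharing in width and tags was not tested. By complex, median widths were 3137 bp for complex I, 3641 bp for complex II, 3217.5 bp for complex III, 2768 bp for complex IV and 4077 bp for complex V. The order of fold enrichment was different, and complex V with the widest peaks had the lowest median, 5.56.

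**Figure D2:**
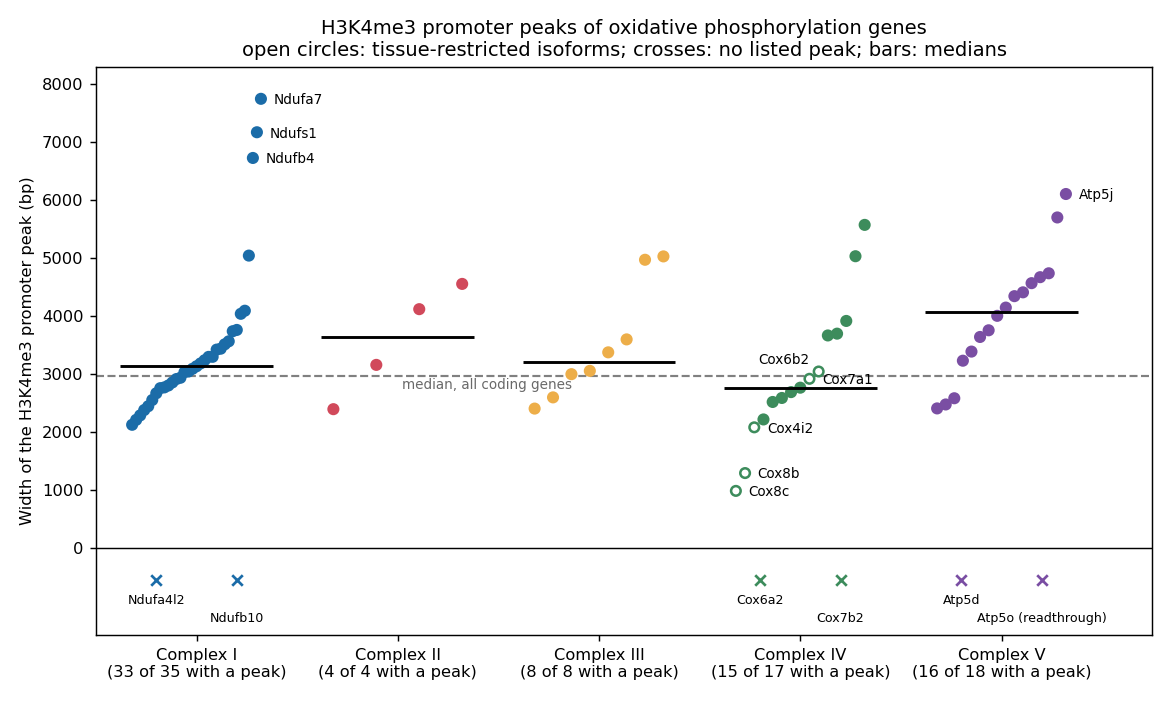
Width in bp of the H3K4me3 promoter peak of each member, by complex. Bars are medians over members with a peak, the dashed line is the median over all coding genes (2964.0 bp), open circles are tissue-restricted isoforms, and crosses below the axis are the 6 members without a listed peak.

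In complex I, the widest peaks of all members were at Ndufa7, Ndufs1 and Ndufb4. Ndufa7, an accessory subunit, had a peak of 7745 bp at chr17:33819841-33827585 with 1118 tags and a fold enrichment of 3.42. Its start site is 10 bp from that of Rps28, a ribosomal protein gene on the other strand, and the same peak also covered a promoter of Kank3. At Ndufs1, the largest subunit of complex I, which carries iron-sulfur clusters, the peak was 7169 bp wide with 1092 tags and a fold enrichment of 4.19, and the start site is 3 bp from that of Eef1b2, a translation elongation factor. Ndufb4, with 6726 bp and 727 tags, covered no promoter of another coding gene. The highest fold enrichments of complex I were 11.50 at Ndufa12 (2129 bp, 405 tags) and 10.14 at Ndufa3 (2214 bp, 348 tags), both among the narrower peaks. The other 30 genes of complex I with a peak had widths from 2129 to 5044 bp. Ndufv3, a subunit of the NADH-oxidizing arm, had 2 separate promoter peaks.

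Complex II, succinate dehydrogenase, also belongs to the citric acid cycle. Sdha, the flavoprotein that oxidizes succinate, had a peak of 3161 bp with 536 tags and a fold enrichment of 8.93. Sdhb, the iron-sulfur subunit, had the widest peak of the 4 (4556 bp, 668 tags), but the lowest fold enrichment, 4.22, and a MACS score of 146.84, which was the third lowest of all members. The score is −log10 of the p-value multiplied by 10 and is 50 at the cutoff. The membrane anchors Sdhc and Sdhd had peaks of 2398 bp with 433 tags and of 4121 bp with 915 tags, with scores of 874.64 and 1040.93.

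In complex III, the core subunits Uqcrc1 and Uqcrc2 had peaks of 2601 and 3058 bp with 456 and 623 tags, and the score at Uqcrc2, 1174.04, was the highest of all members. Uqcrfs1, the Rieske iron-sulfur protein, had the narrowest peak of this complex with 2408 bp and 373 tags. Among the small subunits, Uqcr10 and Uqcrh had 5030 and 4972 bp with 1038 and 1001 tags, and Uqcrb, Uqcr11 and Uqcrq had between 3001 and 3600 bp.

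In complex V, the catalytic core of alpha and beta subunits is encoded by Atp5a1 and Atp5b, which had peaks with 823 and 767 tags. The central stalk is made of the gamma, delta and epsilon subunits. Atp5c1 (gamma) had a peak of 4672 bp with 786 tags and Atp5e (epsilon) one of 2586 bp with 418 tags, whereas no peak was listed at Atp5d (delta). Atp5g1, Atp5g2 and Atp5g3 encode the same mature c subunit of the rotor ring with different import sequences, and all 3 had a peak. Their widths were 4411, 5701 and 3390 bp and their tag counts 787, 1130 and 561. The tag count at Atp5g2 was the highest of all members, and its summit lay upstream, at −2676 bp from the reference start site.

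In the peripheral stalk, which holds the catalytic part in place, Atp5o, Atp5f1, Atp5h and Atp5j had 4148, 4345, 4739 and 6105 bp, all above the median of all coding genes. The membrane and associated proteins Atp5j2, Atp5k, Atp5l, Atp5mpl and Atp5s had between 2411 and 4006 bp.

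In complex IV, the catalytic subunits are encoded in mitochondrial DNA and the genes examined here encode the smaller nuclear subunits around them. Cox5a had a peak of 5033 bp with 848 tags, and Cox5b one of 2522 bp with 420 tags. Cox6c and Cox7c had 2768 and 2221 bp with 487 and 281 tags, and Cox7a2l, a factor in joining complexes into supercomplexes, had 3918 bp with 553 tags. The tissue-restricted isoforms can be set beside the widely used genes of the same subunit. Cox8b, the isoform of heart and skeletal muscle in rodents, had a peak of 1297 bp with 90 tags, and Cox8c, a testis isoform, one of 990 bp with 64 tags, compared with 3668 bp and 618 tags at Cox8a. Per kb of peak, these were 69.4 tags at Cox8b, 64.6 at Cox8c and 168 at Cox8a. The fold enrichment of 11.40 at Cox8c was above the 7.18 at Cox8a, and that of Cox8b, 4.50, was below it. The peak of Cox8b had a score of 59.43, the lowest of all members. Cox4i2, an isoform of lung and oxygen-sensing cells, had 2085 bp and 242 tags, and Cox4i1 5573 bp and 934 tags. Cox4i1 also had the lowest fold enrichment of all members, 3.38, so that it exceeded Cox4i2 in width and tags but not in fold enrichment (7.86 at Cox4i2) or in score (171.92 and 585.0). The peak of Cox4i1 also covered the promoters of Emc8 and Gm27021, with its summit at −1192 bp from the Cox4i1 start site, and its tags cannot be assigned to Cox4i1 alone.

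Cox7a1, the isoform of heart and skeletal muscle, and Cox7a2 differed less, with 2921 and 2692 bp and with 330 and 472 tags, but the score was 269.7 at Cox7a1 and 985.42 at Cox7a2. For Cox6b the order of tags was the other way round. Cox6b2, a testis isoform, had 731 tags in 3047 bp, and Cox6b1 had 459 tags in 2591 bp. The peak of Cox6b2 at chr7:4750934-4753980 covered the whole gene, with its summit 889 bp downstream of the start site, and its 240 tags per kb were the highest density of all members. Its fold enrichment, 5.68, was lower than the 7.69 at Cox6b1, and it had no peak when the summit was required inside the promoter window. No peak was listed at the muscle isoform Cox6a2, at the testis isoform Cox7b2 or at Ndufa4l2, a relative of Ndufa4 induced under low oxygen. Their partners had 693 tags (Cox6a1), 290 tags (Cox7b, which is on chromosome X and outside the rule) and 693 tags (Ndufa4). The peak of Ndufa4 also covered the promoter of Phf14, so its tags cannot be assigned to Ndufa4 alone. The list holds no replicate values, so these differences carry no error. No ASH2L promoter peak was listed at any of the 8 tissue-restricted isoforms, where 8.07% of all coding genes had one, so that a count of 0 of 8 says little.

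**Figure D3:**
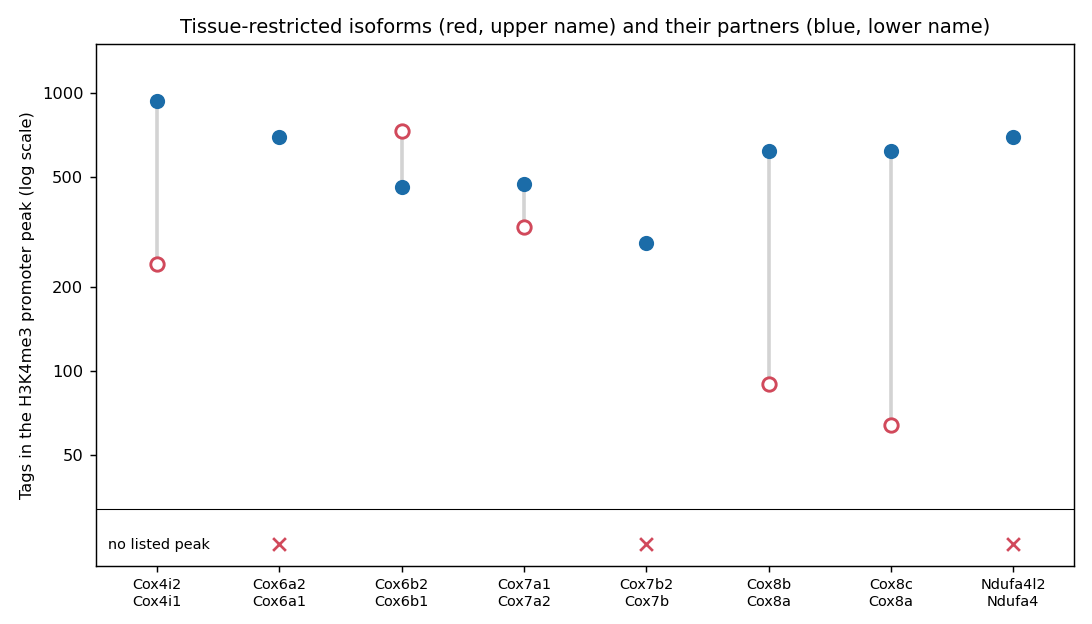
Tags in the H3K4me3 promoter peak, on a log scale, for each tissue-restricted isoform (open red circles, upper names) and its widely used partner (blue circles, lower names). Red crosses under the line are isoforms without a listed peak, and Cox6b2 is the isoform with more tags than its partner (731 and 459).

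Width and enrichment ran in opposite directions among the members. Over the 76 peaks, Spearman's rho was 0.93 between width and tags, −0.79 between width and fold enrichment and −0.49 between width and score. Over the 13040 peaks at all coding promoters the values were 0.93, −0.72 and −0.11. These are correlations across genes of 1 list of merged duplicates, and genes are not replicates. The 26 members with peaks from 2000 to under 3000 bp had a median score of 864.12 and a median fold enrichment of 7.96. In the 9 members with peaks of 5000 bp or more, the median score was 364.18 and the median fold enrichment 4.19, although they had a median of 1038 tags compared with 426.5. The widest peak of the whole list was 8609 bp, and the 1517 peaks of 5000 bp or more at all coding promoters had a median score of 282.10. In every width class of all coding promoters the lowest scores lay near the cutoff. The local background was taken over 10000 bp, and its part in these values was not tested.

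**Figure D4:**
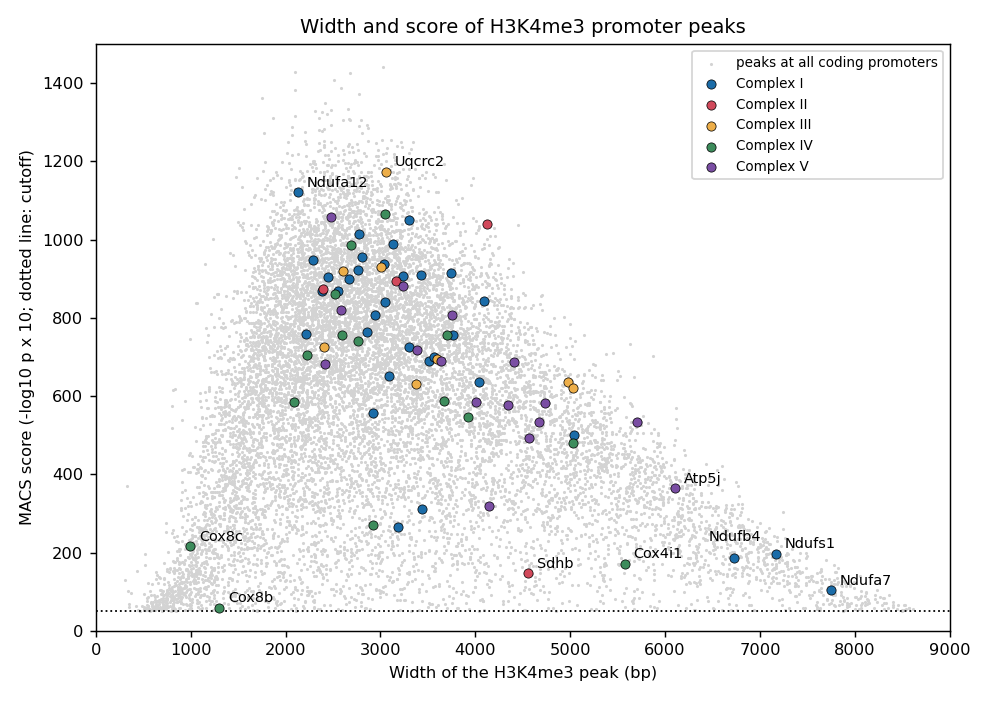
MACS score (−log10 p multiplied by 10) against width in bp for the H3K4me3 peaks of the 76 members, coloured by complex, over the 13040 peaks at all coding promoters in grey. Scores fall towards the cutoff of 50 (dotted line) in the widest peaks, Ndufb4, Ndufs1 and Ndufa7, and are also low in the narrow peaks of Cox8b and Cox8c.

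Ndufb10, an accessory subunit of the membrane arm of complex I, and Atp5d are used in nearly every cell, and no peak was listed within a long interval around either. Around Ndufb10 the list had no entry over 26854 bp (chr17:24708105-24734958). This interval also holds the reference start sites of Rps2, which encodes a ribosomal protein, Rnf151 and Rpl3l. From the reference start site of Ndufb10, the neighbouring peaks were at Msrb1 10481 bp upstream (510 tags, fold enrichment 8.65) and at Tbl3 16374 bp downstream (353 tags, 9.04). Around Atp5d the interval measured 37237 bp (chr10:80132738-80169974) and also held Midn, Cbarp and the reference start site of Cirbp. A peak 5895 bp upstream of an Atp5d start site had 305 tags and a fold enrichment of 4.36, and that 27605 bp downstream, at another start site of Cirbp and at 1600002K03Rik, had 591 tags and a fold enrichment of 3.72.

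The intervals around the other members without a peak measured 41860 bp at Ndufa4l2, 76172 bp at Cox6a2 and 29607 bp at Cox7b2. The interval of Ndufa4l2 also held Shmt2, a mitochondrial enzyme of one-carbon metabolism, and Stac3, a muscle gene. It ended 8782 bp downstream at a peak of 4366 bp with 509 tags and a fold enrichment of 2.86, whose score of 53.28 was just past the cutoff. At Cox6a2 the nearest listed peak was 25127 bp away. The start of the readthrough record of Atp5o lies 2891 bp from the peak of Atp5o itself.

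**Figure D5:**
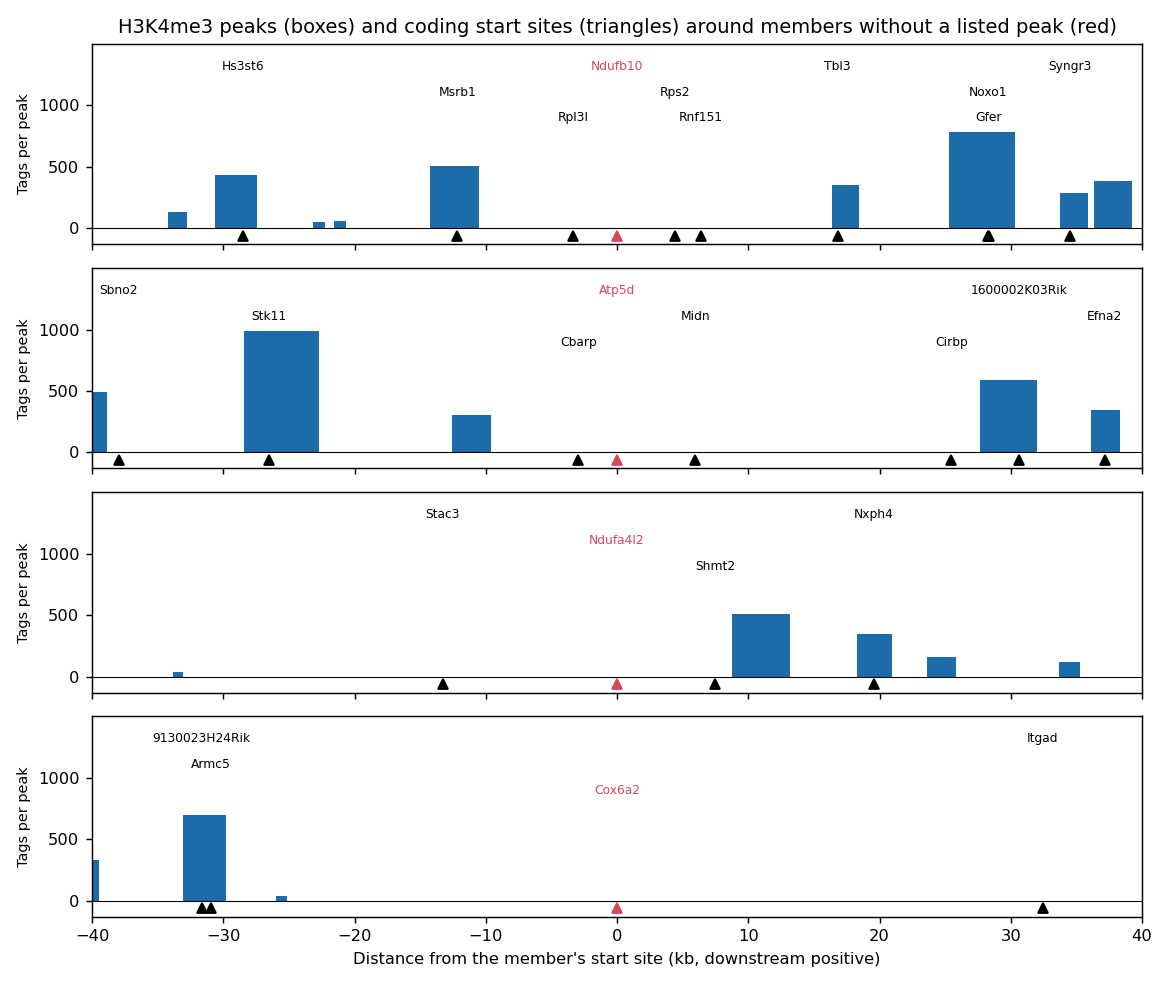
H3K4me3 peaks (blue boxes, height in tags) and reference start sites of coding genes (triangles) within 40 kb of the start sites of Ndufb10, Atp5d, Ndufa4l2 and Cox6a2 (red), as distance in kb along the direction of the gene. Each of these 4 start sites lies in an interval without a listed peak, of 26854 bp at Ndufb10 and 76172 bp at Cox6a2.

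ASH2L promoter peaks were listed at 4 of the 82 records (4.88%), compared with 8.07% of all coding genes. These are peaks of the HA tag called without a control library, and they were not compared here with parental HA. All 4 genes, Ndufa4, Ndufc2, Ndufs4 and Ndufv2, also had an H3K4me3 peak, and each ASH2L peak lay entirely inside it. With an H3K4me3 peak at 92.7% of the records, 4 of 4 says little. Ndufa4 was named as a complex I subunit and is now counted with complex IV. The counts by complex given here follow the symbols and place Ndufa4 and Ndufa4l2 in complex I. The ASH2L peak of Ndufa4 at chr6:11907238-11908166 had 42 tags, a fold enrichment of 5.08 and a score of 88.15, higher than 84.1% of the ASH2L list. It also covered the promoter of Phf14. The summit lay upstream, at −455 bp from the Ndufa4 start site, and 99 bp from the H3K4me3 summit. Ndufv2, an iron-sulfur subunit of the NADH-oxidizing arm, had a peak at chr17:66101080-66101982 with 35 tags, a fold enrichment of 3.61 and a score of 56.42, with the summit 345 bp downstream of the start site.

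The peaks at Ndufc2 and Ndufs4 had fewer tags. Ndufc2, an accessory subunit, had 24 tags, a fold enrichment of 5.84 and a score of 58.87 at chr7:97399927-97400512, so that it was below Ndufv2 in tags but above it in fold enrichment and score. Ndufs4, an accessory subunit whose loss causes Leigh syndrome, had 25 tags and a score of 52.33 at chr13:114387492-114388128, a score exceeding only 14.2% of the list. This peak lay from 130 to 766 bp downstream of the reference start site, and was counted through the window of another annotated start site. At the other 78 records, the nearest ASH2L peak was between 5878 bp (Ndufv1) and 1796283 bp (Atp5k) from a start site, with a median of 111852 bp. The 0.398% of ASH2L tags in peaks limits what this list can show, and genes without an ASH2L peak are reported as having none listed.

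Many members share a promoter region with another gene. The H3K4me3 peak of 30 of 76 members (39.5%) also covered the promoter of another coding gene, compared with 20.7% of all coding genes with a peak. A coding start site on the other strand lay within 500 bp of the start site of 20 of 82 members (24.4%), compared with 7.94% of all coding genes. Such an arrangement was found at 10 of 35 genes of complex I, 3 of 4 of complex II, 3 of 8 of complex III, 1 of 17 of complex IV and 3 of 18 of complex V. Besides those of Ndufs1 and Ndufa7, close pairs were Ndufb9 with Tatdn1 at 26 bp, Sdha with Ccdc127 at 29 bp, Ndufa8 with Morn5 at 52 bp, Ndufb3 with Fam126b at 61 bp, Ndufs3 with Kbtbd4 at 84 bp, Sdhd with Timm8b at 98 bp and Ndufa2 with Ik at 99 bp. Timm8b encodes a chaperone of mitochondrial protein import. The one pair in complex IV was Cox4i1 with Emc8 at 101 bp. The peak of Atp5j (6105 bp, 1042 tags) also covered the promoter of Gabpa, which encodes an ETS factor known as a regulator of respiratory chain genes, and its summit lay 1 bp from the start site of Gabpa. Tags under a shared peak cannot be divided between the genes, and no peak was shared by 2 members.

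Promoter sequences were searched on both strands for the letters of factors known to act on nuclear genes of the respiratory chain. Of 63 members with a RefSeq promoter, 10 held GCATGCGC, the core of the NRF1 motif (15.9%), compared with 4.05% of 14634 coding promoters of the same length. The ETS letters CCGGAAG, bound by GABPA, were in 15 (23.8%, compared with 13.3%), the YY1 letters ATGGCGG in 7 (11.1%, compared with 5.95%), and the ESRRA letters AAGGTCA in 8 (12.7%, compared with 3.90%). The SP letters GGGCGG were in 25 (39.7%, compared with 51.7%). In 600 bp around the start site the counts of these letters were larger, and those of YY1 and ESRRA moved to 19 (30.2%, compared with 12.3% of coding promoters) and 23 (36.5%, compared with 7.58%), and that of SP to 39 (61.9%, compared with 63.0%). In the 300 bp promoters, the letters of NRF1, ETS or YY1 were in 27 (42.9%, compared with 20.9%), and in 13 of 30 genes of complex I, 2 of 3 of complex II, 3 of 5 of complex III, 3 of 12 of complex IV and 6 of 13 of complex V. ETS and SP matches overlapped each other in 1 member, Ndufs3. The NRF1, ETS and YY1 letters were found in none of the 4 tissue-restricted isoforms with a sequence, and the SP letters in 2 of them. A match is a description of the letters in this window and not a binding site.

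Cox6a1, the widely used partner of Cox6a2, and Atp5k, the e subunit of the ATP synthase, are shown as 2 of the 5 members whose promoters hold both the NRF1 and the ETS letters, as do 117 of the 14634 coding promoters. Capitals mark all matches of the 5 motifs, and the intervals are Cox6a1 at chr5:115348909-115349208 (minus strand) and Atp5k at chr5:108434350-108434649 (minus strand).
Cox6a1: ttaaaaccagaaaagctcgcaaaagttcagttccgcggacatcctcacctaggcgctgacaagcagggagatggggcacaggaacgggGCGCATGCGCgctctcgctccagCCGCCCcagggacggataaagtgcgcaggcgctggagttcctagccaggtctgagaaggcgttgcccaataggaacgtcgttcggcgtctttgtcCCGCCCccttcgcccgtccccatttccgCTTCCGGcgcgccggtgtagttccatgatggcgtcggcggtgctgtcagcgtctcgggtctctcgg
Atp5k: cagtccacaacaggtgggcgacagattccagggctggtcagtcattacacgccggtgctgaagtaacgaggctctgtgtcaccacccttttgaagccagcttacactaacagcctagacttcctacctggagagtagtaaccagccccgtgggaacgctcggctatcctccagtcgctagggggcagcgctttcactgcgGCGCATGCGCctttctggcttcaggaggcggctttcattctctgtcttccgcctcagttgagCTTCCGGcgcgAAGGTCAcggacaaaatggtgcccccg
Positions are counted from the RefSeq start site as 0. In Cox6a1 the NRF1 letters stood on both strands in overlapping matches from −162 to −153, the ETS letters from −16 to −10 and the SP letters at 2 places. In Atp5k the NRF1 letters stood from −50 to −41, again on both strands, the ETS letters from 12 to 18 and the ESRRA letters from 23 to 29. The H3K4me3 peak of Cox6a1 had 693 tags and a fold enrichment of 7.00, and that of Atp5k had 465 tags and a fold enrichment of 10.01.

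The ratio of observed to expected CpG in the same promoters had a median of 0.80 in the members, from 0.11 at Cox8b to 1.14, compared with 0.65 over all coding promoters. It was at least 0.6 in 52 of 63 members (82.5%), compared with 54.1%. In the 4 tissue-restricted isoforms with a sequence it was between 0.11 and 0.56, with 0 of 4 at 0.6 or more, and the partners of 3 of them, Cox8a, Cox7a2 and Cox6b1, had 0.84, 0.83 and 0.81. The fourth, Cox7b2, has its partner on chromosome X, which was not included. Cox6b2, at 0.43, had more H3K4me3 tags than Cox6b1. Members without a listed peak had 0.61 (Ndufb10), 0.74 (Atp5d) and 0.56 (Cox7b2), compared with a median of 0.18 over all coding genes without a peak and 0.75 over those with one. CpG content moved with the listing of peaks over all coding genes, and its part in the differences between members was not tested.

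Genes of the same pathway outside the rule were counted from lists of assembly factors, further subunits and regulators. Of 44 assembly factors, which help to build the complexes without being part of them, 42 had an H3K4me3 peak (95.5%, compared with 69.8% of all coding genes), and their median width was 2977 bp. No promoter peak was listed at Surf1, a factor of complex IV, or at Sdhaf1, a factor of complex II, and the nearest peak was 10253 bp from a start site of Surf1 and 195 bp from one of Sdhaf1. Peaks of ASH2L were listed at 3 of the 44, Bcs1l, Cox15 and Cox20, where 8.07% of all coding genes had one. The 7 subunits and carriers that the rule left out, among them the cytochrome c genes Cycs and Cyct, all had an H3K4me3 peak and no listed ASH2L peak. Of 9 regulators, 8 had an H3K4me3 peak, with medians of 5191 bp in width and 4.25 in fold enrichment. The exception was Ppargc1a, the coactivator of mitochondrial biogenesis in muscle and brown fat. ASH2L peaks were listed at 3 of the 9, Nrf1, Gabpb1 and Esrra, with 50, 58 and 50 tags. These lists are short, and nothing is read from their counts beyond the values.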

How the data were processed

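HA and H3K4me3 CUT&RUN of mouse E14 cells was examined from 2 peak lists. Per the paper's methods and the labels' processing notes, the authors mapped reads to mm10 with Bowtie2, used SAMtools 1.5 and bedtools, merged the duplicates, kept short fragments and called peaks with MACS, version 1.4.3 in the file headers, at a p-value cutoff of 1e-05, without a control library and with 1 tag kept per position. The tag sizes in the headers, 142 bp for H3K4me3 and 151 bp for ASH2L, exceed the fragment limit of the methods, so it is not settled which fragments were counted. Whether the lists are complete is not stated. Deposited tag counts are whole tags of the authors' merged libraries. The deposited score is −log10 p multiplied by 10, and the deposited fold enrichment is a ratio to the authors' modelled local background. Tag counts were not compared between the lists. After filtering, 27328071 of 39669806 H3K4me3 tags and 25677963 of 26545897 ASH2L tags remained. Parental HA libraries were not analysed here.

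Peaks overlapping a promoter window (1000 bp upstream to 100 bp downstream of each transcript start site, GENCODE vM21 on GRCm38.p6) by at least 1 bp were assigned to the gene, and the peak with the most tags described it. The members and lists were chosen with earlier results of these data known. Named were members without a peak, tissue-restricted isoforms with partners, members with ASH2L peaks, the 3 widest, narrowest, highest and lowest by fold enrichment, the Sdh and Atp5g genes, and up to 10 with the nearest facing start sites. Some items that these rules select are not reported here. Ndufv3, Ndufb7, Atp5j, Cox4i1 with Emc8, the neighbours and pathway genes, and the further genes of complexes III to V were added after their values were seen. RefSeq promoters matched 63 members, and 19 had no entry. The overlap procedure was tested on simulated data. Python 3.11.15 was used, with pysam 0.24.0 for sequences, scipy 1.17.1 for correlations, numpy 2.4.6, matplotlib 3.10.9 and pandas 2.3.3.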

Additional observations from a re-analysis of the deposited data

How the results depend on the processing

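For 11 results, 53 alternative values were computed under 11 settings, and 10 moved beyond the range set for them. Other promoter windows, start sites and a minimum overlap of 200 bp left the same 76 members with an H3K4me3 peak, and ASH2L peaks at 3 or 4, with Ndufs4 lost under GENCODE basic transcripts and under the 200 bp overlap. With the summit required inside the window, 66 members had an H3K4me3 peak and 2 an ASH2L peak (54.1% and 5.70% of all coding genes). With peaks at or above the median fold enrichment of their list, 39 members had an H3K4me3 peak and 1 an ASH2L peak (36.7% and 3.93% of all coding genes), 3 tissue-restricted isoforms remained, the median width was 2760.0 bp and the median fold enrichment 7.83. This setting removes wide peaks by construction, since these have the lower folds. With a score of at least 100, no member had an ASH2L peak (0 of 82, and 0.961% of all coding genes), and Cox8b lost its H3K4me3 peak. In 600 bp of sequence, 19 members held ATGGCGG, 39 GGGCGG and 23 AAGGTCA (12.3%, 63.0% and 7.58% of coding promoters). Leaving out the readthrough record of Atp5o, an alternative chosen after seeing the data, changed none of these values.

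No paired analysis was possible because each list merges its duplicates, and leaving out a replicate was not possible either. ASH2L peaks at members rest on 24 to 42 tags each.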
